A study of Homo sapiens with 12 samples.

Results

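TYK-nu cells kept in cisplatin were followed from 24 h to 72 h of treatment, by comparing the exon counts and the intron counts of each gene between those times. A gene entered the comparison where it had at least 10 exon counts in at least 3 of the 6 cisplatin libraries, and 10431 of the 17508 genes in the deposited table did. Of these, 9190 also passed the same minimum in introns and were used for intron counts and for the exon/intron ratio. A change over time played no part in the choice, although 143 genes reached the minimum in all 3 libraries of 72 h and in none of 24 h, and 2 genes the other way round. Library totals overlapped between the times, and the median total was higher at 72 h.

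TYK-nu is a human line labelled as a high-grade serous ovarian adenocarcinoma. Cultures received 15 μM cisplatin, a platinum drug that crosslinks DNA, or DMSO as control, for 24 or 72 h, with 3 cultures in each of the 4 groups. Polyadenylated RNA was sequenced in pairs of 100-base reads on a single lane, and fragments were counted for each gene, those on exons apart from those on introns. The line was a gift, it was not authenticated according to the study's reporting form, and the labels name no genetic change in any group. The sources used here do not say whether the medium was renewed or whether replicates were set up on separate days, so the p-values measure the spread between these cultures only. Hours in the drug equal hours in culture in the cisplatin libraries, where both cannot be told apart, and the DMSO cultures of the same times give the background.

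The cell type on the label was checked against its defining markers before any comparison. Levels are exon counts scaled to a normalised library of 1000000 counts (CPM), and they are compared between libraries for one gene at a time. PAX8, the lineage factor of serous ovarian carcinoma, had 3 exon and 2 intron counts over all 6 cisplatin libraries. CDH1 (E-cadherin) had 0 and 2, and SOX17 and CDH2 (N-cadherin) had 0 of both. A low exon count alone is a limited guide in this table, since SNRNP70, a core splicing gene, had 23 exon and 6414 intron counts in the same libraries. The epithelial keratin KRT7 was between 0 and 0.134 CPM, and EPCAM between 0.117 and 1.68 CPM. Other epithelial genes were present, with the keratin KRT18 between 139.5 and 179 CPM, the tight junction gene CLDN7 between 22.9 and 39.1 CPM and the keratin KRT8 between 11.0 and 34.5 CPM. Of 23 epithelial and mesenchymal genes in the table, 5 had at least 10 CPM in all 12 libraries (these 3, VIM and ZEB1) and 10 were under 1 CPM in all of them. Of 13 serous ovarian lineage genes in the table, 3 had at least 10 CPM in all 12 libraries (MECOM, CCNE1 and STMN1) and 9 were under 1 CPM in all of them. The summed level of these 13 was 415 to 442 CPM at 24 h and 324 to 335 CPM at 72 h.

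Genes typical of endothelium, a list added after these values were seen, were high in the same libraries. Of 27 such genes with an exon entry, 18 had at least 10 CPM in all 12 libraries, while 5, CD34, PLVAP and EMCN among them, were under 1 CPM throughout. PECAM1, an adhesion receptor of endothelium and blood cells, was at 2411 to 2474 CPM at 24 h and 1415 to 1524 CPM at 72 h. The endothelial cadherin CDH5 was at 943 to 1013 CPM at 24 h and 742 to 783 CPM at 72 h, and the receptor TIE1 at 1648 to 1915 CPM at 24 h and 2396 to 2571 CPM at 72 h. Summed over the list, the level was 11099.5 to 11452 CPM at 24 h and 10653 to 10770 CPM at 72 h. Markers of other cell types were partly present: of 13 such genes, 3 had at least 10 CPM in all libraries (PECAM1, CDH5 and the lysosomal protein CD68), and the leukocyte gene PTPRC and the muscle gene DES were among those at 0. The part of these marker levels in the results below was not tested, and the cells are called by their label, TYK-nu.

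**Figure D1:**
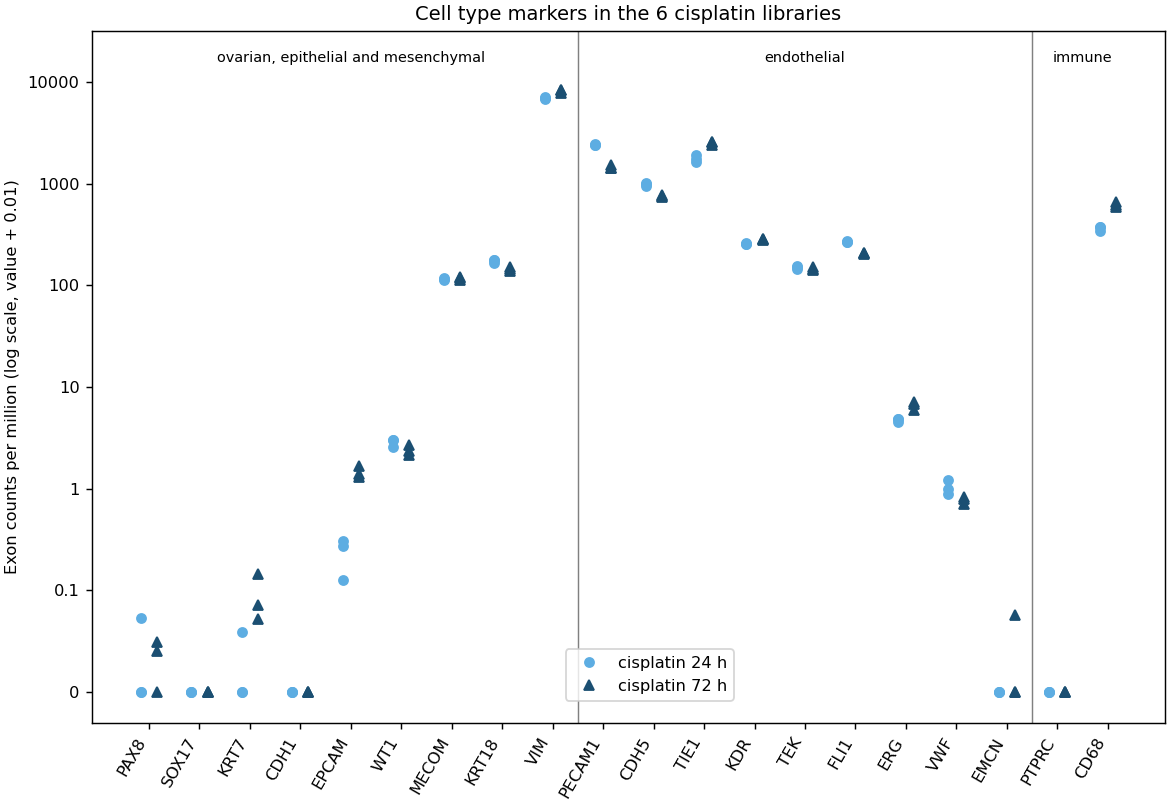
Exon counts per normalised library of 1000000 (CPM, log axis) of cell type markers in the 3 cisplatin libraries of 24 h (circles) and the 3 of 72 h (triangles), with one column of points per gene. PAX8, SOX17, CDH1 and PTPRC lie at or near 0, while PECAM1, CDH5 and TIE1 lie among the highest points after VIM in all 6 libraries.

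Exon and intron counts summed to between 18526830 and 36911333 per library at 24 h and between 31908403 and 68753262 at 72 h in cisplatin. Replicate libraries differed from each other by more than counting noise in each group. On the first principal component of exon counts, which held 80.3% of the variance, libraries were separated by time in both treatments.

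As background, cisplatin adducts stall replication forks and are removed by nucleotide excision repair and by the Fanconi anaemia pathway, while the checkpoint kinases ATR and ATM and the factor p53 slow the cell cycle. Entry into S phase is driven by E2F factors, which switch on the genes of the replication machinery. Type I interferon acts through the JAK kinases and a complex of factors that includes STAT2 and IRF9 on genes that carry an interferon-stimulated response element in their promoter, and heat shock factors act on chaperone genes through the heat shock element. Amino acid shortage and other stresses act through the integrated stress response, whose factors ATF4 and CEBP family members switch on genes of amino acid supply.

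Between 24 and 72 h in cisplatin, 3340 genes rose (32.0% of the 10431 tested) and 3294 fell (31.6%) at an adjusted p under 0.05. The split depends on scaling, with 3978 rises and 2713 falls by upper-quartile factors, 3529 and 3082 by library totals, and 3302 and 3315 by RLE factors. At least 2-fold changes were called for 543 genes that rose (5.21%) and 215 that fell (2.06%), and at least 4-fold changes for 130 and 12. The count minimum admitted more large rises than falls, and among the 10286 genes that reached it in a library of each time the counts were 449 and 213 at 2-fold and 66 and 10 at 4-fold. Over all genes tested the median log2 change was 0.02, with quartiles of -0.28 and 0.34 and a median SE of 0.08. The 3 libraries of one time lay all above the 3 of the other for 7011 genes (67.2%). Among the 15 genes with the largest rise, 8 were on the list of interferon-stimulated genes, 1 of them, IFI44L, over the count minimum only at 72 h, and among the 15 with the largest fall, 4 were DNA replication genes, 4 genes of the chaperone list, the mitochondrial HSPE1 among them, 3 TGF-beta and BMP target genes and 2 G1 regulators. In bulk RNA, fewer cells of a kind and less RNA per cell cannot be told apart.

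Log2 changes below are of exon counts, 72 h over 24 h in cisplatin, with the SE of the fit. List counts are of members with an adjusted p under 0.05 over all genes tested (edgeR's quasi-likelihood test, Benjamini-Hochberg), and each list stands against the shares of all genes given above.

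**Figure D2:**
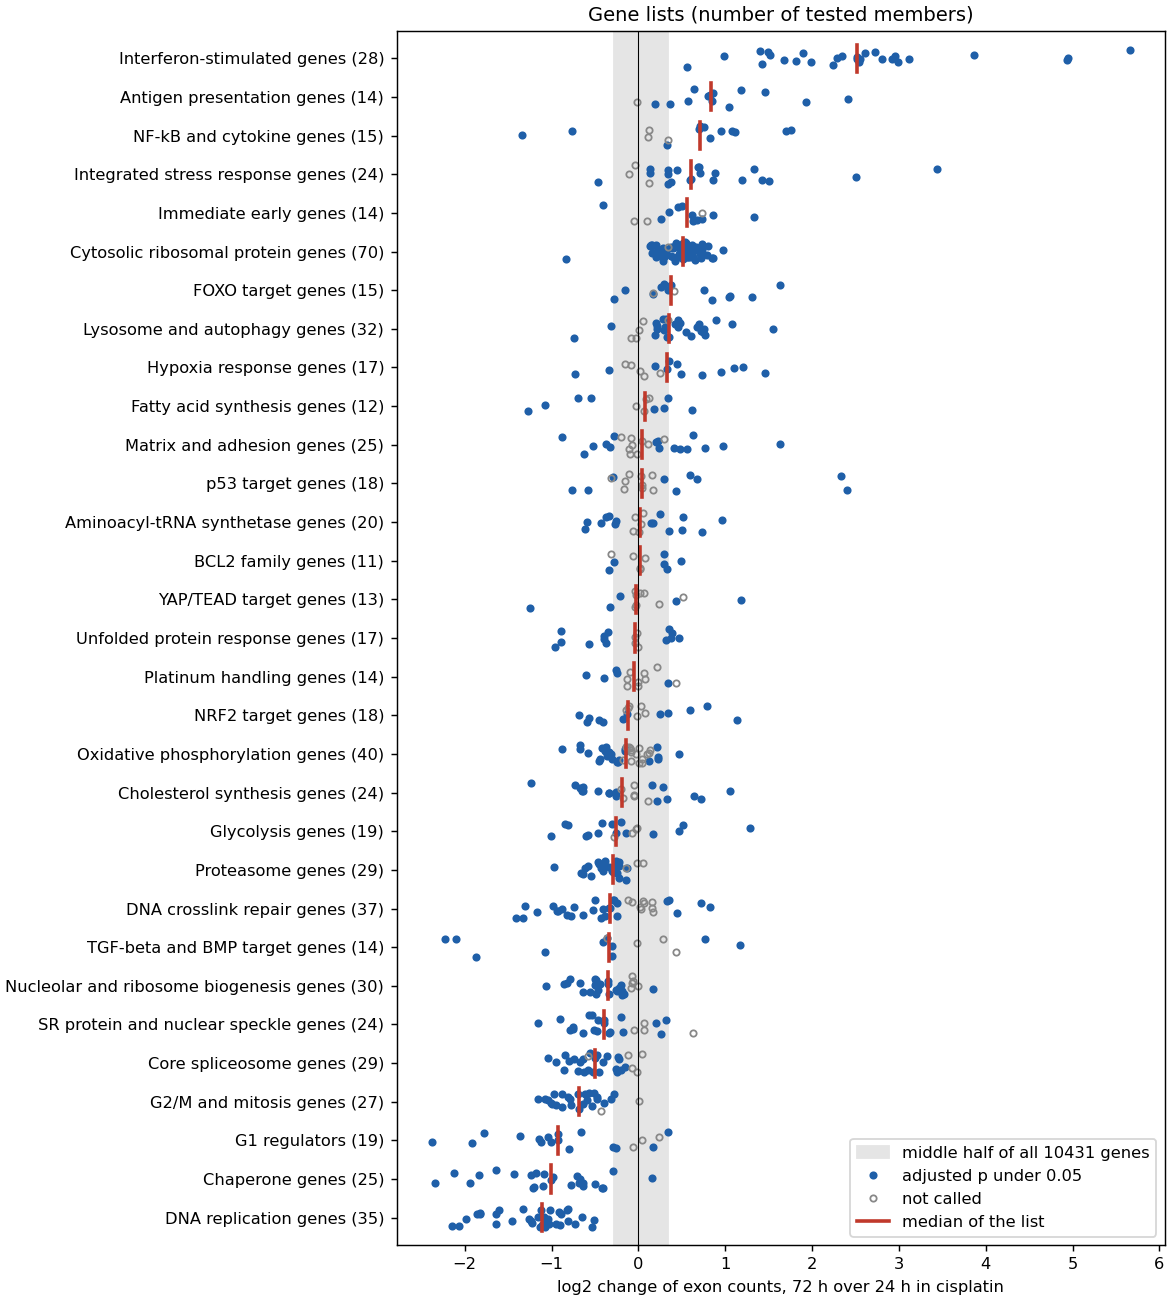
Log2 change of exon counts from 24 to 72 h in cisplatin (x axis) for the tested members of each gene list shown (rows, with the number of tested members), filled where the adjusted p was under 0.05, with the list median as a red bar and the interquartile range of all genes in grey. Interferon-stimulated genes lie farthest to the right with a median of 2.52, and DNA replication genes farthest to the left with a median of -1.11.

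Interferon-stimulated genes rose as a group. Of 28 tested members 28 rose and 0 fell, with a median log2 change of 2.52, against 0.02 over all genes. In DMSO the median over the same members was 2.53, with 28 of them higher at 72 h. Of the members, 4 (IFI44L, MX2, CXCL10 and IFI27) reached the count minimum only through the 72 h libraries and so had to be higher there, and the other 24 rose as well. The list covers sensors of foreign RNA, effectors that block viral RNA, and the transcription factors of the pathway. RNA sensors, signalling factors and effectors were all among the members that rose.

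ISG15, a ubiquitin-like protein that is attached to other proteins, was at 72.3, 73.4 and 73.3 CPM at 24 h and 515, 643 and 743 CPM at 72 h (log2 change 3.12 ± 0.16, adjusted p = 2.8e-14). IFIT1, which binds viral RNA that lacks a host-type cap, was at 38.4, 28.1 and 33.9 CPM at 24 h and 259, 258 and 276 CPM at 72 h (2.99 ± 0.13, adjusted p = 4.1e-15). In both the libraries of 24 h lay far below those of 72 h, with no overlap. IFI44L, a gene induced by interferon, had 8, 4 and 8 exon counts at 24 h and 581, 843 and 492 at 72 h. It is one of the 4 members that passed the minimum through the 72 h libraries alone, so its change is given as a description. Windows of 150 bases before the start of these genes are shown because they hold the letters of the response element, GAAANNGAAA on either strand, in capitals (RefSeq, GRCh38.p14, in the direction of the gene, overlapping matches run together): IFI44L at chr1:78620298-78620447 (plus strand), ISG15 at chr1:1013347-1013496 (plus strand) and IFIT1 at chr10:89392473-89392622 (plus strand).
IFI44L: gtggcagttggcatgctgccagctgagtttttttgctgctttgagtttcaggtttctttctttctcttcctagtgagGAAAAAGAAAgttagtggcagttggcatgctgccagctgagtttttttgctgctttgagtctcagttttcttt
ISG15: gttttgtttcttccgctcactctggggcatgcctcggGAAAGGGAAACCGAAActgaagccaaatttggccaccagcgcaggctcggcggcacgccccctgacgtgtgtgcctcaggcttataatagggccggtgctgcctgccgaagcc
IFIT1: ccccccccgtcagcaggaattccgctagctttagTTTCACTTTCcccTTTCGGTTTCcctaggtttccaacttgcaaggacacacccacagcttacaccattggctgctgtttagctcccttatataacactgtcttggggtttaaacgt

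Shares of genes with such letters, here and below, were counted over longer RefSeq windows. These reach further before the start than the stretches printed and also past the start into the gene. A gene counted where any of its windows held the letters. Among tested interferon-stimulated genes with a window, 15 of 21 (71.4%) held these letters on either strand. The share was 3.80% of the 8491 tested genes with a window and 3.58% of all 34961 windows. A match of letters is a description of the window, not of a bound site.

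The sensors and factors rose with them. IFIH1 (MDA5), a sensor of long double-stranded RNA, went from 16.3 ± 3.07 to 127 ± 6.91 CPM (SD, n = 3, log2 change 2.96), and RIGI, a sensor of RNA ends, from 28.2 ± 3.70 to 171 ± 13.6 CPM (2.62). DHX58, a regulator of both sensors, rose by 3.08 on the log2 scale. The factor IRF9 went from 31.4 ± 1.27 to 117 ± 3.71 CPM (SD, n = 3, log2 change 1.90), every 72 h library above every 24 h library, and its partner STAT2 (0.99) rose too. IRF7, which amplifies interferon production, rose by 2.81, and USP18, which removes ISG15 and damps the receptor, by 2.72. Of the antiviral enzymes that make oligoadenylate, OAS1 rose by 1.82, OAS2 by 1.52 and OAS3 by 1.42. BST2, a tether of budding virus, rose least of the list (0.57). Exons of IFIT2 and IFIT3 overlap those of LIPA, and exons of RIGI those of another protein-coding gene on the same strand. The strand setting of the counting is not given in the sources used here, so these genes are uncertain.

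Transcripts of interferon itself were few. IFNB1, interferon beta, had 1, 0 and 0 exon counts at 24 h and 26, 21 and 17 at 72 h in cisplatin, and 1, 0 and 0 at 24 h against 9, 4 and 18 at 72 h in DMSO. The chemokine CXCL10 had 1, 0 and 1 exon counts at 24 h and 32, 77 and 28 at 72 h in cisplatin. The counts of both were higher in each 72 h library than in any of 24 h, at a depth too low for a fold. IFNL1, an interferon lambda, had 1 exon count over the 24 h libraries and 3 over the 72 h libraries, and IFNG had 0 and 1. MX1 was not analysed here.

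Genes of antigen presentation by HLA class I, whose promoters can respond to interferon, rose as well: 13 rose and 0 fell of 14 tested, with a median of 0.83 (0.94 in DMSO). HLA-B, a class I heavy chain, went from 1.84 ± 0.0258 to 9.78 ± 1.67 CPM (SD, n = 3), a log2 change of 2.41 ± 0.18. The peptide transporter subunit TAP1 rose by 1.93 and its partner TAP2 by 0.20, while the chaperone TAPBP had -0.01 and did not pass. HLA-E rose by 1.04 and the immunoproteasome subunits PSMB8 and PSMB9 by 0.85 and 1.18. HLA heavy chains share sequence, and reads between them may be split by the counting. In their windows, 9 of 12 members (75%) held the letters of the response element.

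Of NF-kB and cytokine genes, 10 rose and 2 fell of 15 tested, with a median of 0.71. RELB and NFKB2, subunits of the slow NF-kB branch, rose by 1.75 and 0.82, and BIRC3, an inhibitor of cell death, by 1.11. The cytokine genes IL1A (0.69) and IL6 (0.95) rose, while IL11 (-1.34) and the chemokine CXCL1 (-0.76) fell. CXCL8 had 0.11 and did not pass.

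**Figure D3:**
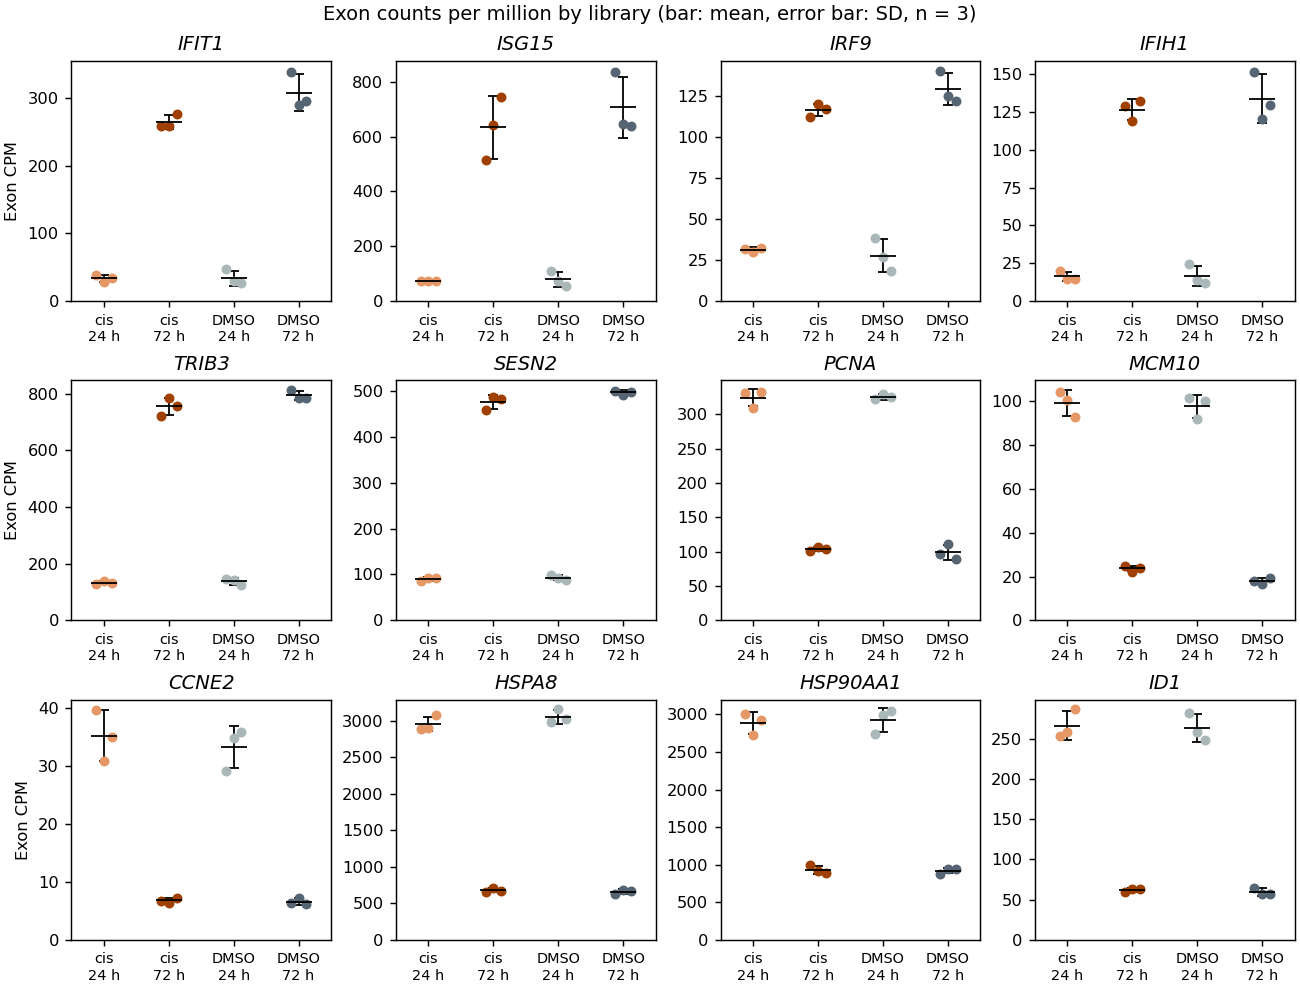
Exon CPM (y axis, from 0, one scale per gene) of the genes named above each panel in each library of cisplatin (cis) and DMSO at 24 and 72 h, with the mean as a bar and the SD as error bar (n = 3). IFIT1, ISG15, IRF9, IFIH1, TRIB3 and SESN2 are higher and PCNA, MCM10, CCNE2, HSPA8, HSP90AA1 and ID1 lower at 72 h in each library of both treatments.

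The replication machinery fell. All 35 tested DNA replication genes were lower at 72 h with an adjusted p under 0.05, 24 of them by at least 2-fold, with a median log2 change of -1.11 in cisplatin and -1.29 in DMSO. UHRF1, which links new DNA to maintenance methylation, was at 93.7, 112 and 92.8 CPM at 24 h and 24.2, 22.9 and 20.0 CPM at 72 h (-2.15 ± 0.09, adjusted p = 2.9e-15). PCNA, the sliding clamp of DNA polymerases, was at 331, 310.0 and 332 CPM at 24 h and 101, 107 and 104 CPM at 72 h (-1.64 ± 0.06). GINS2, a subunit of the replicative helicase, was at 111, 109 and 119 CPM at 24 h and 37.0, 35.6 and 36.5 CPM at 72 h (-1.63 ± 0.06). The 24 h and 72 h libraries did not overlap in any of the 3 genes. Their windows of 150 bases before the start are shown because they hold letters bound by E2F factors, TTTCCCGC, TTTGGCGC or TTTCGCGC on either strand, in capitals (RefSeq, GRCh38.p14, in the direction of the gene): UHRF1 at chr19:4909351-4909500 (plus strand), PCNA at chr20:5126623-5126772 (minus strand) and GINS2 at chr16:85688955-85689104 (minus strand). UHRF1 and PCNA have further annotated starts.
UHRF1: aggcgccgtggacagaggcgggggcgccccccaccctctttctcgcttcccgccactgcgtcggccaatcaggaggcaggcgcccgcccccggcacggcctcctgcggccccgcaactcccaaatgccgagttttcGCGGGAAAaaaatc
PCNA: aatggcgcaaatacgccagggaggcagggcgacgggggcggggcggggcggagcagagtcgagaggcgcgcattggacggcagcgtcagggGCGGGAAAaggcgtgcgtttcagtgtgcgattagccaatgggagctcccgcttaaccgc
GINS2: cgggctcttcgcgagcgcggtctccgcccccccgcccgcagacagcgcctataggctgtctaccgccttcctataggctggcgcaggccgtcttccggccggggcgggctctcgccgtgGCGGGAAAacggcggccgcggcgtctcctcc

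These E2F letters stood in 18 of 31 replication genes with a window (58.1%) and in 5 of 15 G1 regulators (33.3%), against 5.99% of tested genes with a window and 2.75% of all windows.

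Each step of replication had members that fell. Of the helicase MCM2-7 and its loaders, MCM4 had a log2 change of -1.83, MCM6 of -1.24, CDC6 of -1.46 and ORC1 of -1.33. MCM10, which acts in helicase activation, had -2.07. RRM2, the subunit of ribonucleotide reductase that limits the supply of DNA precursors, went from 760.2 ± 34.6 to 215 ± 3.61 CPM (SD, n = 3), a change of -1.82 ± 0.05. FEN1, the flap nuclease of the lagging strand (-1.60), the polymerase gene POLA1 (-0.95) and the ligase LIG1 (-0.82) fell. CLSPN, an adaptor between the fork and the checkpoint kinase CHEK1, fell by 1.86. CDT1 had the smallest fall (-0.51 ± 0.07). Exons of GINS1 (-1.98) overlap those of NINL on the other strand, and MCM3 was not analysed here.

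Of the G1 regulators, 2 rose and 14 fell of 19 tested, with a median of -0.93. CCNE2, the cyclin E2 that starts S phase with CDK2, was at 39.8, 30.9 and 35.1 CPM at 24 h and 6.74, 6.43 and 7.20 CPM at 72 h and had the largest fall of the named genes (-2.38 ± 0.10, adjusted p = 3.4e-15). CDC25A, the phosphatase that activates CDK2, fell by 1.92, and the factors E2F1 (-1.14) and E2F2 (-1.78) fell too. Members that rose were CDKN1B (p27), an inhibitor of CDK2, with 0.17 ± 0.06, and RBL2 (p130), which holds E2F targets silent in resting cells, with 0.34 ± 0.05. CDK4 had 0.04 and CDK6 0.24, and neither passed. Exons of CCNE2 overlap those of INTS8 on the other strand.

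Genes of G2 and mitosis fell as well, with 25 of 27 lower, 0 higher and a median of -0.68 (-0.71 in DMSO). MKI67, the proliferation antigen Ki-67, was at 310.5, 315 and 287 CPM at 24 h and 149, 123 and 137 CPM at 72 h (-1.16 ± 0.07, adjusted p = 9.5e-13). CDK1, the kinase that starts mitosis, was at 162, 144 and 164 CPM at 24 h and 74.5, 70.8 and 77.0 CPM at 72 h (-1.08 ± 0.07). Both genes had separate groups of libraries. The checkpoint gene BUB1B (-1.01), the motor KIF20A (-0.99) and cyclin CCNB1 (-0.81) fell. CDC25C (0.01) and BIRC5 (-0.43) did not pass. The windows of MKI67 and CDK1 are shown because they hold TTTGAA, the cell cycle homology element found in many G2/M promoters, in capitals on either strand (RefSeq, GRCh38.p14, 150 bases before the start): MKI67 at chr10:128126424-128126573 (minus strand) and CDK1 at chr10:60778328-60778477 (plus strand), the last with a further annotated start.
MKI67: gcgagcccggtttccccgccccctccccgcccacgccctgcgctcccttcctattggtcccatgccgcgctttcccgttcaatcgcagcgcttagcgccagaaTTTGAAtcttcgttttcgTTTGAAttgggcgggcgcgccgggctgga
CDK1: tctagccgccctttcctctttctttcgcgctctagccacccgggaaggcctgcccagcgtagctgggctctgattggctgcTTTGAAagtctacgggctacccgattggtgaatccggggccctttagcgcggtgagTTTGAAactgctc

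TTTGAA stood in 15 of 23 mitosis genes with a window (65.2%), against 13.5% of tested genes and 15.2% of all windows. CCAAT, the letters of factor NF-Y, stood in 21 of these 23 genes (91.3%) and in 20 of 31 replication genes (64.5%), against 43.3% of tested genes and 34.6% of all windows.

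Genes that act on the lesions of the drug moved in both directions. Of DNA crosslink repair genes, 5 rose and 23 fell of 37 tested, with a median of -0.33 (-0.39 in DMSO). FANCA, a subunit of the Fanconi core complex, went from 84.6 ± 1.85 to 34.2 ± 1.12 CPM (SD, n = 3), a log2 change of -1.31 ± 0.06 (adjusted p = 4.8e-15). FANCD2 (-0.99) and FANCI (-0.93), which clamp DNA at the crosslink, fell, as did XRCC2 (-1.33) of homologous recombination. The kinase ATR fell by 0.43, and ATM rose by 0.82. ERCC1, whose nuclease cuts beside the adduct, rose by 0.72 ± 0.06, while its partner ERCC4 had 0.02 and did not pass. REV3L was not analysed here.

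Of 14 tested genes of platinum uptake, efflux and binding, 1 rose and 4 fell, with a median of -0.05. LRRC8A, the volume-regulated channel subunit through which cisplatin can enter, fell by 0.60 ± 0.08. The copper pump ATP7A rose by 0.35, and the efflux pump ABCC4 fell by 0.40. SLC31A1 (CTR1), the copper importer linked to cisplatin uptake, had -0.14 ± 0.07, and GSTP1, a glutathione transferase, had -0.00 ± 0.06, and neither passed. The metallothioneins MT1E (-0.26) and MT1X (-0.25) fell, but without the first 72 h library their changes were -0.16 and -0.16 and neither passed. Both are near-identical in sequence to their neighbours.

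The p53 targets as a list had a median of 0.04, with 6 of 18 higher and 3 lower. SESN2, a stress-induced brake on the kinase complex mTORC1, was at 85.4, 93.1 and 91.4 CPM at 24 h and 458, 487 and 482 CPM at 72 h (2.40 ± 0.05, adjusted p = 2.7e-20), and GDF15, a secreted stress cytokine, went from 39.8 ± 3.15 to 201 ± 15.4 CPM (2.33). Both are also targets of the integrated stress response. The polymerase POLH, which copies past cisplatin adducts, fell by 0.76. DDB2 (0.16), ZMAT3 (-0.17), AEN (0.04) and RRM2B (-0.15), targets in many cells, did not pass. CDKN1A (p21) was not analysed here, nor were MDM2, BBC3 and PMAIP1, which have no exon count in the table used. FAS, PHLDA3 and TP53INP1 were below the count minimum, so the list median leaves out these targets. Of 11 tested BCL2 family genes, 4 rose and 2 fell, among them the death inhibitor BCL2L1 (0.30) and the death activator BID (-0.34). BAD, which promotes death, also rose in the reported fit, but it did not pass under several alternatives, DESeq2 (0.33) among them. MCL1, BBC3 and PMAIP1 of this family were not analysed.

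The integrated stress response list rose, with 20 of 24 members higher and 1, ATF5, lower, a median of 0.60 and 0.61 in DMSO. TRIB3, a pseudokinase that feeds back on ATF4, was at 129, 138 and 132 CPM at 24 h and 723, 786 and 756 CPM at 72 h (2.50 ± 0.06, adjusted p = 3.4e-20). NUPR1, a small stress-induced chromatin protein, went from 0.637 ± 0.306 to 6.27 ± 0.921 CPM (3.44). PPP1R15A, which ends the stress response by restoring translation, rose by 1.42, DDIT4, an inhibitor of mTORC1, by 1.34, and the factor CEBPB by 1.50. ATF4 itself rose by 0.34 ± 0.05. Enzymes of serine and one-carbon supply rose too, PHGDH by 0.37, PSAT1 by 0.13 and SHMT2 by 0.86. Of aminoacyl-tRNA synthetases, 8 rose, SARS1 (0.97) and WARS1 (0.74) among them, and 7 fell of 20.

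Chaperone genes fell. Of 25 tested members 24 were lower and 1, HSPA9, higher, with a median of -1.01 in cisplatin and -0.97 in DMSO. The list holds 3 mitochondrial chaperones, HSPA9, HSPD1 and HSPE1, and without them 22 of 22 were lower (median -0.997, and -0.97 in DMSO). HSPA8, the constitutive HSP70, was at 2887, 2906 and 3072 CPM at 24 h and 650.1, 705 and 672 CPM at 72 h (-2.13 ± 0.05, adjusted p = 3.4e-20). HSP90AA1, the inducible HSP90, was at 3012, 2729 and 2928 CPM at 24 h and 989, 911 and 892 CPM at 72 h (-1.63 ± 0.05). Libraries of the times did not overlap for either. Their windows are shown because they hold the letters of the heat shock element, GAANNTTCNNGAA on either strand, in capitals (RefSeq, GRCh38.p14, 150 bases before the start): HSPA8 at chr11:123062137-123062286 (minus strand) and HSP90AA1 at chr14:102087045-102087194 (minus strand), the last with a further annotated start.
HSPA8: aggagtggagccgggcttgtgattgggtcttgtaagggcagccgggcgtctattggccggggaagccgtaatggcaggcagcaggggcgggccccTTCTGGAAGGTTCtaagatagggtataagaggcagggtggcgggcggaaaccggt
HSP90AA1: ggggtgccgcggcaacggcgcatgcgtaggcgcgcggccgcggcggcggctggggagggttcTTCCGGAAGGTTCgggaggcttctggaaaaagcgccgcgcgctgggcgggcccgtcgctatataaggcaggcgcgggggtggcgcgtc

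These letters stood in 5 of 23 chaperone genes with a window (21.7%), against 0.471% of tested genes and 0.489% of all windows. The cochaperones AHSA1 (-1.24) and HSPH1 (-1.43), HSP90AB1 (-1.09) and the mitochondrial HSPD1 (-1.18) fell. Subunits of the ring chaperone TRiC had changes from -0.42 for CCT4 to -1.21 for TCP1. HSPA1A (-2.34) and HSPA1B (-1.84) are near-identical copies whose reads cannot be split with certainty, and exons of HSPE1 (-1.94) overlap those of HSPE1-MOB4 and HSPD1.

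Proteasome genes fell by small amounts, with 26 of 29 lower, 0 higher and a median of -0.29. PSMD12, a lid subunit (-0.97), and PSMB2, a core subunit (-0.57), were among them. Of unfolded protein response genes of the endoplasmic reticulum, 5 rose and 8 fell of 17 tested, with a median of -0.04. The chaperones CALR (-0.89) and MANF (-0.89) fell, HERPUD1, which assists removal of misfolded proteins, rose by 0.46, and HSPA5 (BiP) had -0.04 and did not pass.

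Lysosome and autophagy genes rose, with 25 of 32 higher, 2 lower and a median of 0.35 (0.38 in DMSO). SQSTM1 (p62), an autophagy receptor, went from 545 ± 23.1 to 1598 ± 82.8 CPM (SD, n = 3), a change of 1.55 ± 0.05. The sialidase NEU1 rose by 1.07, the cholesterol exporters of the lysosome NPC1 and NPC2 by 0.77 and 0.89, and the protease CTSD by 0.68. TFEB, a factor that drives such genes, had -0.08 and did not pass, and its relative TFE3 rose by 0.55. FOXO targets, genes held down by growth factor signalling, had 11 of 15 higher and 2 lower with a median of 0.37, among them the coregulator CITED2 (1.31), the cyclin CCNG2 (1.06) and the repressor BCL6 (1.63). RBL2, CDKN1B and GABARAPL1 stand on this list and on others.

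Genes of the ribosome rose, and most of those of its assembly fell. Of 70 cytosolic ribosomal protein genes, 68 rose and 1, RPS10, fell, with a median of 0.51 in cisplatin and 0.66 in DMSO. RPL12 went from 1089.6 ± 43.4 to 2145 ± 192 CPM (SD, n = 3), a change of 0.98 ± 0.06, and RPS3 rose by 0.67. Many of these genes have processed pseudogenes of near-identical sequence, so their counts are uncertain. Of nucleolar and ribosome biogenesis genes, 1 rose and 24 fell of 30 tested, with a median of -0.35. NOLC1, a chaperone of small nucleolar RNA-protein complexes, had a change of -1.06, NOP56, a core protein of these complexes, of -0.82, and nucleolin, NCL, of -0.79 ± 0.05. FBL, the methyltransferase of ribosomal RNA, had -0.01 and did not pass.

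Of glycolysis genes, 4 rose and 11 fell of 19 tested (median -0.26). LDHA, lactate dehydrogenase A, went from 187 ± 11.4 to 92.9 ± 3.11 CPM (SD, n = 3), a change of -1.01, and PGK1 fell by 0.81, while the glucose transporter SLC2A1 rose by 0.47. Of nuclear oxidative phosphorylation genes, 5 rose (12.5%) and 20 fell (50%) of 40 tested (median -0.15), beside 32.0% and 31.6% of all genes. In DMSO 10 of them were higher and 15 lower, with a median of -0.05. ATP5MC3 of the ATP synthase had -0.88 and SDHA of complex II -0.58. Genes encoded in mitochondria were not analysed here.

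Of cholesterol synthesis genes, 7 rose and 11 fell of 24 tested (median -0.19). SREBF2, the factor of the pathway, rose by 0.64. Of fatty acid synthesis genes, 4 rose and 4 fell of 12, with FASN at -1.08, ELOVL6 at -1.27 and the desaturase SCD at 0.62. Hypoxia response genes had 10 of 17 higher, MXI1 (1.46) and ANGPTL4 (1.20) among them, and 2 lower (median 0.34). In DMSO 9 of them were higher and 3 lower. NRF2 targets split, with 5 higher and 7 lower of 18: HMOX1 and FTL of heme and iron handling rose by 1.13 and 0.79, and GCLM (-0.57) and GSR (-0.59) of glutathione supply fell.

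ID1, ID2 and ID3, inhibitors of differentiation that BMP signals induce, were among the 15 largest falls, with ID1 at 253, 259 and 287 CPM at 24 h and 59.7, 62.5 and 63.4 CPM at 72 h (-2.10 ± 0.07), ID2 at -2.23 and ID3 at -1.87. The libraries of ID1 at 72 h lay below each of those at 24 h. Of the TGF-beta and BMP list as a whole, 2 rose and 8 fell of 14 tested (median -0.33). LTBP2, a binding protein of the TGF-beta family, rose by 1.17. Of immediate early genes, switched on within minutes of a stimulus, 10 rose and 1 fell of 14 tested (median 0.56), with EGR1 at 1.33 and JUN at 0.74. YAP/TEAD targets had 2 higher and 3 lower of 13, with ANKRD1 at -1.25 and the receptor AXL at 1.18, and CCN1 (0.02) did not pass.

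Of matrix and adhesion genes, 10 rose (40%) and 6 fell (24%) of 25 tested (median 0.05), beside 32.0% and 31.6% of all genes. The laminin chains LAMB3 (1.63) and LAMB1 (0.63) and integrin ITGA3 (0.97) were higher and ITGAV (-0.63) lower. COL16A1 (2.51) was among the 3 of 6 tested collagen genes that rose. Of the endothelial genes, 5 rose and 11 fell of 22 tested (median -0.24, and -0.26 in DMSO). The vessel-destabilising ligand ANGPT2 (-1.15), PECAM1 (-0.74), the VEGF receptor FLT1 (-0.64) and CDH5 (-0.38) fell, whereas TIE1 rose by 0.50 and the factor ERG by 0.47. Of epithelial and mesenchymal genes, 7 rose and 2 fell of 13 tested. The keratin KRT8 was at 11.0, 11.9 and 13.1 CPM at 24 h and 30.9, 34.5 and 30.7 CPM at 72 h (1.42 ± 0.09), with separate groups. The epithelial CLDN7 was higher too (22.9 to 24.2 CPM, then 34.1 to 39.1), and the mesenchymal factor SNAI1, at most 1.63 CPM, fell by 1.41. In contrast, the mesenchymal VIM (6773 to 7106 CPM, then 7897 to 8450) and ZEB1 (177 to 185, then 255 to 286) were higher at 72 h. The keratin KRT18 was lower (167 to 179, then 140 to 150).

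The same interval of time in DMSO, the solvent control, gave similar numbers of calls, with 3399 genes higher (32.6%) and 3390 lower (32.5%) at 72 h. Of the genes called in cisplatin, 5765 were called in the same direction in DMSO, which is 86.9% of the cisplatin calls and 84.9% of the DMSO calls. Across the 10431 genes the log2 changes of both treatments had a Pearson r of 0.907, as a description of genes that share the libraries of each fit. INPP4A and LIMK1, named after their values were seen, were the 2 genes called higher in cisplatin and lower in DMSO, and 0 genes were called the other way round. INPP4A lost its cisplatin call without the first 24 h library (0.15) or without the third 72 h library (0.19). IFIT1 in DMSO was at 46.7, 28.8 and 26.0 CPM at 24 h and 339, 289 and 296 CPM at 72 h, a log2 change of 3.18 beside 2.99 in cisplatin. PCNA in DMSO was at 322, 330.2 and 325 CPM at 24 h and 96.5, 111 and 89.9 CPM at 72 h (-1.72 beside -1.64), and HSPA8 at 2980.0, 3159 and 3023 CPM at 24 h and 626, 686 and 663 CPM at 72 h (-2.21 beside -2.13). The ranges of these genes in DMSO lay close to those in cisplatin at each time.

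**Figure D4:**
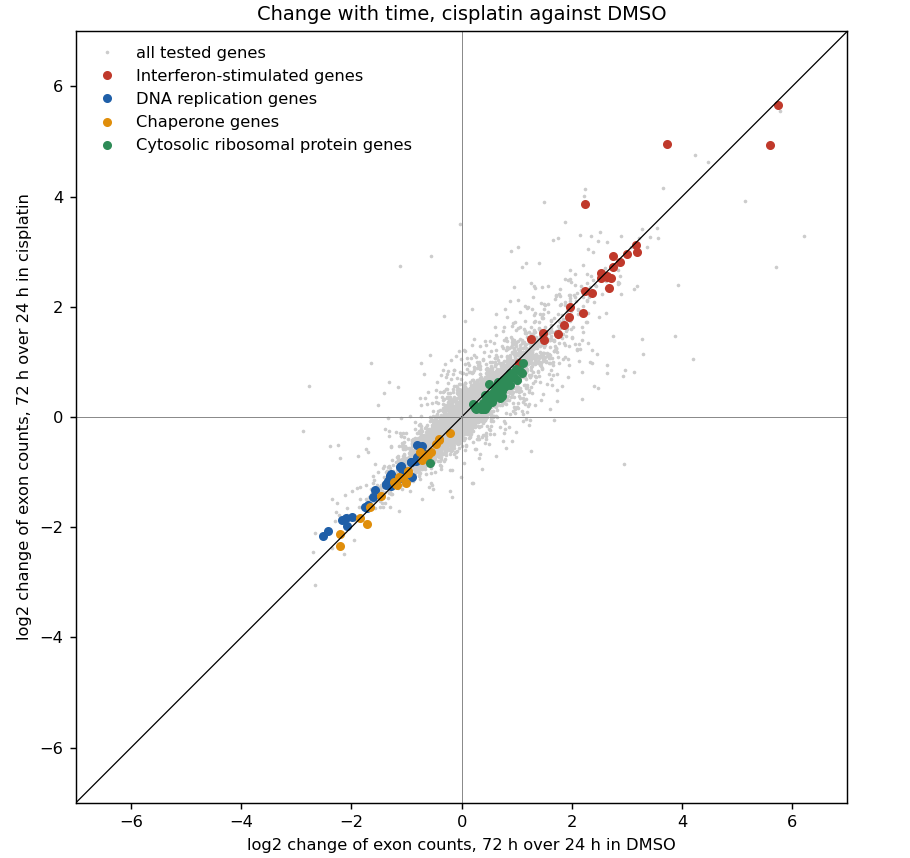
Log2 change of exon counts from 24 to 72 h in DMSO (x axis) and in cisplatin (y axis) for each tested gene, with 4 lists in colour and the line of equal change. Most genes follow the line (r = 0.907 across genes), replication genes lie mostly just above it and ribosomal protein genes mostly just below it.

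Whether time acted differently in cisplatin was tested by the difference of both log2 changes, cisplatin minus DMSO. By edgeR's quasi-likelihood test, 0 of 10431 genes passed an adjusted p of 0.05 (0.0%), the smallest adjusted p was 0.455, and DESeq2 also called 0. At an unadjusted p under 0.05 there were 987 genes, 503 above 0 (4.82%) and 484 below 0 (4.64%). The median half-width of the 95% interval of the difference was 0.21 on the log2 scale, an unadjusted interval, and larger differences than this also missed the adjusted threshold. The 8 genes of smallest p included TCEAL4 (-0.33 ± 0.08, unadjusted p = 0.00028 and adjusted p = 0.45 by edgeR), the ribosomal protein paralog RPL22L1 (-0.49 ± 0.12), the translation-associated TMA7 (-0.41 ± 0.10) and INPP4A, a phosphoinositide phosphatase (0.41 ± 0.10). Of these 8, 7 had a difference below 0.

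Among replication genes, 33 of 35 had a difference above 0, that is a smaller fall in cisplatin than in DMSO, 16 of them at an unadjusted p under 0.05 and 0 at an adjusted one, with a median of 0.16. MCM10 had -2.07 in cisplatin and -2.42 in DMSO, a difference of 0.35 ± 0.10 (unadjusted p = 0.0016 and adjusted p = 0.45 by edgeR). Among ribosomal protein genes, 68 of 70 had a difference below 0, a smaller rise in cisplatin, 27 of them at an unadjusted p under 0.05 and 0 at an adjusted one, with a median of -0.16. RPL26 rose by 0.80 in cisplatin and by 1.10 in DMSO, a difference of -0.31 ± 0.08. Differences were unevenly split on other lists too. Oxidative phosphorylation genes had 37 below 0 and 3 above (median -0.13), and proteasome genes 23 below and 6 above (-0.10). YAP/TEAD targets had 11 above and 2 below (0.15), and TGF-beta and BMP targets 12 above and 2 below (0.11). On each of these lists 0 members passed an adjusted p. Members of a list share libraries and are not replicates. Without the low-count filter the difference passed an adjusted p of 0.05 for 20 genes, 4 of them ribosomal protein genes (RPL26, RPL27, RPS14 and RPS3A), each of which had an adjusted p of 0.45 with the filter. For interferon-stimulated genes the median difference was -0.07, with 8 members above 0 and 20 below. For chaperones it was -0.04.

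Intron counts come from unspliced RNA and from introns that are kept, and rose or fell with the exon counts for most called genes. Of 9190 genes, 1105 were higher at 72 h in cisplatin (12%) and 1675 lower (18.2%), with a median log2 change of -0.09 (-0.09 in DMSO). The split depends on scaling: with a TMM factor from the intron counts themselves, 1519 rose and 1428 fell. Without the second 24 h library in cisplatin 1214 rose and 1193 fell, with a median of -0.03. Without the third 24 h library in cisplatin the median was -0.14. Of the 2780 called genes, 2084 were called in the same direction in exons, 152 in the opposite one and 544 had no exon call. Of the 5 named intron rises, 3 were on the list of interferon-stimulated genes. IFI6, a protein of the mitochondrial membrane, had 91, 146 and 74 intron counts at 24 h and 2247, 3114 and 1688 at 72 h (3.60), and PARP10, a mono-ADP-ribosyltransferase, had 7, 5 and 8 intron counts at 24 h and 183, 250 and 112 at 72 h. PARP10 and ISG15 reached the intron minimum only through the 72 h libraries, so their rise in introns is a description. Falls were led by SLCO4A1, a transporter (-2.78), SLBP, which binds histone mRNA (-2.74), SMAD6, an inhibitor of BMP signals (-2.52), ID1 (-2.50) and UHRF1 (-2.37). Exons of PARP10 overlap those of GRINA, and exons of SLCO4A1 overlap an antisense gene. Exons of IFI6 overlap those of a long noncoding RNA gene on the same strand, so its counts are uncertain.

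By list, introns followed exons for 24 of 25 interferon-stimulated genes, which rose in introns with a median of 2.13 (20 of 20 rose without the 5 that reached the intron minimum only through 72 h libraries), and for 32 of 35 replication genes, which fell with a median of -1.30. Genes of mitosis had an intron median of -0.76. Ribosomal protein genes did not show the exon rise in introns: 13 rose, 18 fell and the median was -0.02. SR protein genes had an intron median of 0.13 and an exon median of -0.39. Of 9190 genes, 103 rose in exons and fell in introns (1.12%), and 18 of the 70 ribosomal protein genes were among them. The opposite held for 49 genes (0.533%), among them 6 of the 24 SR protein and nuclear speckle genes.

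The exon/intron ratio of a gene falls where more of its counted RNA is unspliced or keeps introns. In cisplatin it rose over time for 798 of 9190 genes (8.68%) and fell for 341 (3.71%), with a median log2 change of 0.11 (0.10 in DMSO). Without the second 24 h library in cisplatin the counts were 442 and 333 and the median 0.05, and without the second 72 h library 637 genes were called in all. The difference between treatments passed an adjusted p for 0 genes by edgeR, and 416 genes had an unadjusted p under 0.05. By the logistic regression that the study used, which takes each fragment as independent, 3984 of 9818 genes differed between the times (2843 higher, 1141 lower), 1137 of the edgeR calls among them, and 97 with a dispersion estimated for each gene.

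The ratio of ribosomal protein genes rose for 44 of 70 and fell for 2. RPS10 was one that fell (-1.57), with more intron than exon counts in each library and a read-through gene, RPS10-NUDT3, over its exons. Ratios of SR protein and nuclear speckle genes fell for 12 of 24 and rose for 0. SR proteins bind exons and guide the spliceosome, and their own genes carry introns or poison exons whose inclusion lowers the protein. SRSF3 had an exon/intron ratio of 24.0, 22.8 and 23.3 at 24 h and 8.59, 8.01 and 7.52 at 72 h, a log2 change of -1.54 ± 0.11 (adjusted p = 5.1e-10), with exon counts at -0.91 and intron counts at 0.64. Every 72 h library lay below every 24 h library. SRSF7 had 10.6, 9.27 and 9.80 at 24 h and 5.48, 5.46 and 5.16 at 72 h (-0.88 ± 0.11), and the ratios of SRRM1 (-0.88), RBM25 (-0.85), RBM39 (-0.84), SRSF5 (-0.78), SRSF6 (-0.70), SRSF4 (-0.68), TRA2A (-0.64), SRSF11 (-0.54), CLK1 (-0.49) and LUC7L3 (-0.44) fell as well. SRSF2, TRA2B and SON have no exon count in the table used here and were not analysed.

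**Figure D5:**
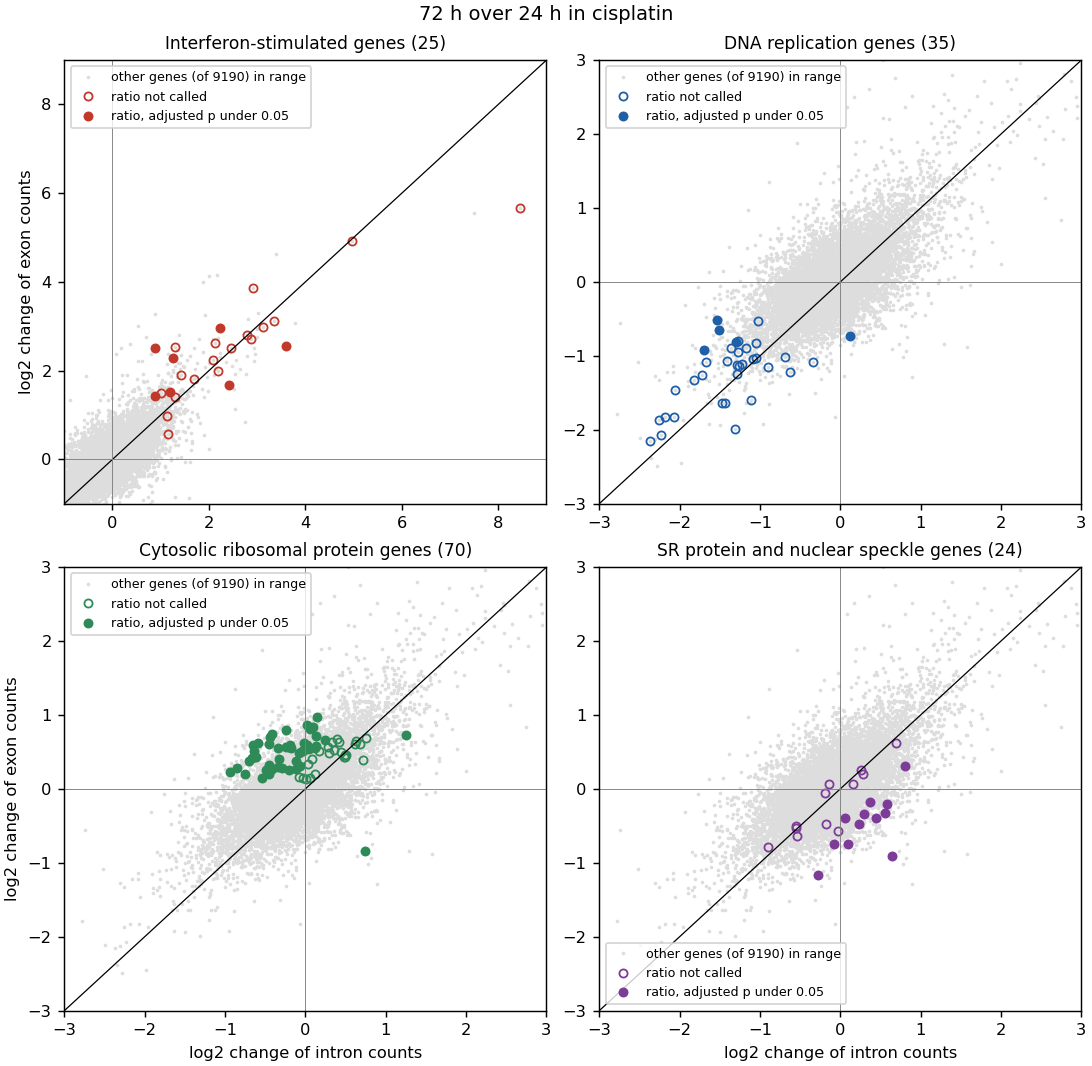
Log2 change of intron counts (x axis) and of exon counts (y axis) from 24 to 72 h in cisplatin for the members of 4 lists, filled where the change of the exon/intron ratio had an adjusted p under 0.05, with other genes within the axes in grey and the line of equal change. Interferon-stimulated and replication genes spread along the line, ribosomal protein genes lie mostly above it, and SR protein genes with a called ratio lie below it. The first panel has a wider scale.

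Core spliceosome genes fell in exons, with 24 of 29 lower, 0 higher and a median of -0.50, and their ratio rose for 1 and fell for 3. SNRPF, a ring protein of the small nuclear RNA-protein particles, had -1.04, and SF3B3, a subunit of the branch point complex, -0.95. Outside these lists, the ratio of PPM1L, a phosphatase, changed by -1.76 and that of HMGN3, a nucleosome-binding protein, by -1.56. It rose for SLBP (2.12), whose exon counts had -0.56 and intron counts -2.74, and for IL4I1 (2.43), whose exons overlap those of NUP62 and ATF5. MICOS10-NBL1 (2.24) and HSPE1-MOB4 (1.63) are read-through genes that share exons with their neighbours and are uncertain.

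Summed over genes, intron counts made up 6.70%, 7.15% and 6.40% of the counts at 24 h and 6.87%, 7.04% and 7.17% at 72 h in cisplatin. The means were 6.75% ± 0.379 and 7.03% ± 0.150 (SD, n = 3), a difference of 0.277 percentage points with overlapping groups (two-sided exact permutation test, p = 0.3, where 0.1 is the smallest p that 3 libraries against 3 allow). The difference was 0.477 without the second and 0.10 without the third 24 h library, and -0.0269 without the 50 genes with the most intron counts. By gene length, the median exon change in cisplatin was 0.09 in the shortest quartile (135 to 13304 bp), 0.0030 in the next, -0.05 in the third and 0.02 in the longest (74601 to 1287656 bp), with no steady order. The median change of the ratio was 0.16, 0.12, 0.10 and 0.07 in the same order.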

How the data were processed

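RNA-seq counts of 12 TYK-nu libraries were used. The authors trimmed reads with Trim Galore 0.6.0, aligned them to GRCh38 with HISAT2 2.1.0 and deposited whole-number exon and intron fragment counts per gene (HTSeq, Ensembl release 98), not normalised. Exons were counted in intersection-strict mode, introns in union mode, and the strand option and any low-count filter are not given in the sources used here. Versions are from the submitters' processing notes.

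Exon counts were tested across all 10431 genes with edgeR 4.0.16 (R 4.3.3, limma 3.58.1) by the quasi-likelihood test with TMM scaling, 12 libraries in 1 fit, and Benjamini-Hochberg adjustment at 0.05. Exon CPM use the TMM library sizes. Intron counts were scaled by the exon library sizes. For the exon/intron ratio, each library had its own term. Alternatives included DESeq2 1.42.0, other filters and scalings, the replicate number as a block and leaving out each library. Python 3.11.15, numpy 2.4.6, scipy 1.17.1, pandas 2.3.3 and matplotlib 3.10.9 were used. The fits were tested on simulated data.

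The members, gene lists and tests were chosen with earlier results of these data known. The 2-fold rule, the endothelial list, the chaperone list without mitochondrial members and the promoter letters were added after the data were seen. Named by rule were the 15 largest exon rises and falls (called, groups not overlapping, mean CPM of 5 or more), 5 intron and 5 ratio changes each way (at least 50 intron counts), the 8 smallest p of the difference of time effects, and per list the 5 members of smallest adjusted p with its defining members. Other list members named, and genes named for a low count, were chosen after their values were seen. Gene names are from GENCODE 44, for 17485 of 17508 genes. Libraries with the same replicate number were not treated as pairs, since nothing says what a number shares. Some genes that the naming rule reaches are not reported here.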

Additional observations from a re-analysis of the deposited data

How the results depend on the processing

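Counts of calls stayed within 1.5 times of the reported ones under the alternatives run, with these exceptions. The added 2-fold rule left 758 exon calls. The difference of time effects had 0 calls as reported, 20 without the low-count filter, 4 of them ribosomal protein genes, 18 of which were also among the genes tested with it and 10 of which were below 0, and between 0 and 1 when a library was left out, the 1 being IGF1R without the third DMSO library of 72 h. The exon/intron ratio had 748 calls with DESeq2 and between 637, without the second cisplatin library of 72 h, and 1128 when a cisplatin library was left out. The quasi-binomial model left 97 of the 3984 logistic calls. The intronic share differed by -0.0269 percentage points without the 50 genes with the most intron counts, the reverse of the reported direction. The cause was not tested. The split between rises and falls turned in places: 50.3% of exon calls were rises as reported, 49.6% with DESeq2, 49.9% with RLE factors, 49.3% without the first cisplatin library of 72 h, 53.4% with library totals and 59.5% with upper-quartile factors, which moved the median of all genes from 0.02 to 0.09. For introns it was 1105 rises and 1675 falls as reported, 1519 and 1428 with intron TMM factors, and 1214 and 1193 without the second cisplatin library of 24 h. Leaving out a cisplatin library gave 6107 to 6367 exon calls in cisplatin (6552 to 6738 for a DMSO library), 2115 to 2639 intron calls and 0.10 to 0.477 percentage points of intronic share.

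The replicate number as a block gave 6536 exon calls in cisplatin, 6735 in DMSO, 0 for the difference, 2624 for introns, 975 for the ratio, 3990 for the logistic regression, and p = 0.5 for the intronic share (exact permutation). Deviations of same-numbered cisplatin libraries correlated at 0.128, 0.119 and 0.045, so the pairing was not taken as shown, although 6 of 6 libraries correlated best with their own number. For single genes named, each counted under each alternative, 3165 values kept their call, 6 gained one and 23 lost it (SMAD6, INPP4A, MT1E, MT1X, DOCK5, BAD and CD3E). Of list medians under each alternative, 427 stayed within 1 SD of the libraries and 113 moved further, 28 of these with upper-quartile factors, which raised each list by 0.07. The sign changed for 7 of 36 lists: aminoacyl-tRNA synthetase, unfolded protein response, platinum handling, matrix and adhesion, YAP/TEAD and BCL2 family genes, with reported medians between -0.05 and 0.05, and, without the low-count filter, markers of other cell types (-0.38 to 0.77). The median depth in cisplatin was lower at 24 h, which limits genes of few counts.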
